A study of Mus musculus with 21 samples.

Results

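Binding of SRSF7 in the chromatin fraction of P19 cells was compared with its binding in the nucleoplasm of the same line. Both groups are mouse P19 embryonal carcinoma cells, a line that expresses an SRSF7-GFP fusion, crosslinked at 254 nm with 100 mJ/cm2 and split into subcellular fractions before iCLIP. The chromatin group has 3 samples and the nucleoplasm group has 3, which makes 6 of the 21 samples of the series. The others are SRSF7-GFP cytoplasm and the 3 fractions of SRSF3-GFP. The authors pooled the samples of a group, so each fraction is 1 list of positions. The chromatin list held 76172 positions with 248498 cDNAs, and the nucleoplasm list held 130679 positions with 275018 cDNAs. All listed positions entered the comparison.

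SRSF7 is an SR protein, with an RNA recognition motif, a zinc knuckle and a tail rich in serine and arginine. SR proteins bind pre-mRNA as it is transcribed, act in splice site choice and 3′ end formation, and some travel with the mRNA to the cytoplasm. In iCLIP, ultraviolet light links the protein to RNA it touches and the linked nucleotide blocks reverse transcriptase, so a cDNA begins next to each bound position. The chromatin fraction holds nascent and tethered RNA, whereas the nucleoplasm holds RNA that has left the template.

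Values are shares of a list's summed cDNA count, with exact 95% Clopper-Pearson intervals. Ratios are the chromatin share over the nucleoplasm share, with 95% conditional exact binomial intervals. These intervals cover counting error only. With 1 pooled value per group there was no spread between replicates to set a difference against, and no test between the fractions was possible. RNA levels in the fractions were not measured here, so more RNA of a kind and more binding per RNA cannot be told apart. No gene annotation of build mm9 was used here, and loci are therefore given by their mm9 position (1-based) and strand, without gene names.

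SRSF7 cDNAs in chromatin were concentrated at fewer and taller positions. A chromatin position held 3.26 cDNAs on average and a nucleoplasm position 2.10. Both means include the locus with the highest share, which held 19.7% of the chromatin cDNAs. Its own means were 18.3 in chromatin and 9.37 in nucleoplasm, and list means without it were not computed. Positions with 6 or more cDNAs carried 60.4% of the chromatin cDNAs, against 38.2% of the nucleoplasm cDNAs. Positions with a single cDNA made up 65.4% of the chromatin list and 71.8% of the nucleoplasm list. The tallest chromatin position had 716 cDNAs, at 39982254 on the plus strand of chromosome 17. It was not listed in nucleoplasm. The tallest nucleoplasm position lay in the same locus, at 39984422, with 110 cDNAs in chromatin and 895 in nucleoplasm.

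Loci were formed by joining positions of all 6 lists of the series wherever same-strand neighbours lay at most 10000 nt apart. To be compared, a locus needed 50 cDNAs in sum over the chromatin and nucleoplasm lists and no fewer than 10 in each. A locus was called when the interval of its ratio lay beyond 2-fold. Of 915 compared loci, 130 were called higher in chromatin (14.2%) and 197 higher in nucleoplasm (21.5%). The median log2 ratio of all compared loci was -0.73. One locus took a large part of the chromatin list, which lowers the share of every other locus there. All loci but that one held 80.3% of the chromatin cDNAs and 93.9% of the nucleoplasm cDNAs, a log2 ratio of -0.23. With shares taken without it, an alternative chosen after seeing the data, 144 loci were higher in chromatin and 141 in nucleoplasm. Leaving it out adds one constant to the log2 ratio of every other locus.

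**Figure D1:**
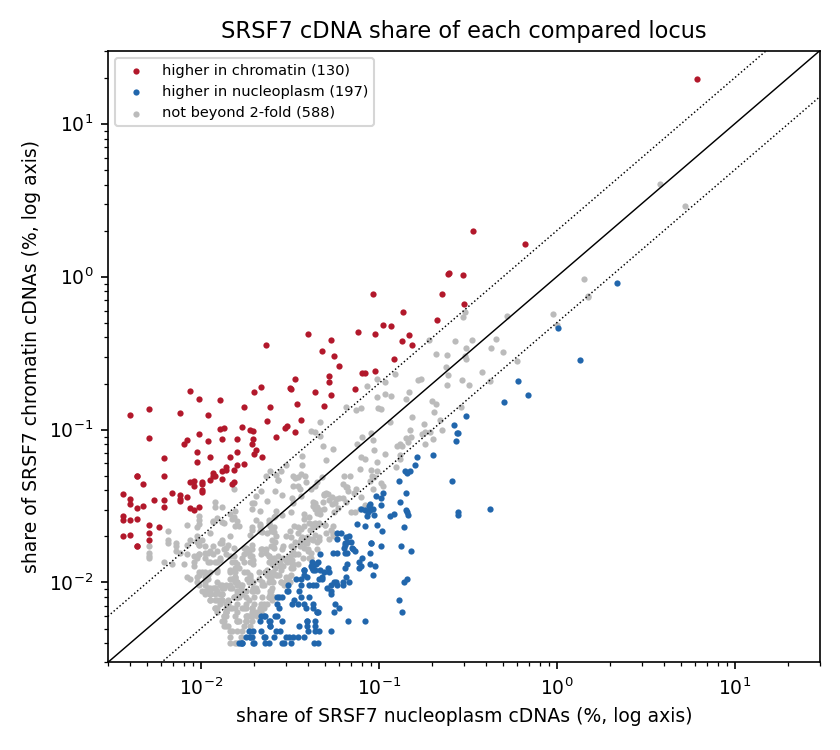
Each point is 1 of 915 compared loci, with its share of SRSF7 chromatin cDNAs (vertical, %, log axis) against its share of SRSF7 nucleoplasm cDNAs (horizontal, %, log axis). The solid line marks equal shares and the dotted lines 2-fold; 130 loci were called higher in chromatin, 197 higher in nucleoplasm, and the point at the top right is the locus with 19.7% of chromatin and 6.11% of nucleoplasm cDNAs.

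The loci higher in chromatin were shorter than the compared loci as a whole, and those higher in nucleoplasm lay nearer to them in span. The 130 loci higher in chromatin had a median span of 2411 nt, beside 18532 nt over all 915, and 54 of them spanned under 500 nt (41.5%, beside 16.9% over all). The 197 loci higher in nucleoplasm had a median span of 25414 nt, beside 22069 nt for the 588 loci not called, and 146 of them spanned over 10000 nt (74.1%, beside 63.9% of those not called). At the loci higher in chromatin, a listed position held 10.6 cDNAs on average in chromatin and 5.41 in nucleoplasm. Without the locus of the highest share these were 7.84 and 3.73. The calls rest on the same cDNA counts, so heights at called loci are a description and no separate support. At those higher in nucleoplasm it held 1.75 in chromatin and 2.09 in nucleoplasm, and over all compared loci 4.15 in chromatin and 2.62 in nucleoplasm. These sets were not tested against each other. The loci higher in chromatin held 43.8% of all chromatin cDNAs and 11.9% of all nucleoplasm cDNAs, or 24.1% and 5.77% without the locus of the highest share. The loci higher in nucleoplasm held 5.36% of the chromatin cDNAs and 19.99% of the nucleoplasm cDNAs.

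The direction of the calls differed by span. Of 155 compared loci under 500 nt, 54 were higher in chromatin (34.8%) and 19 higher in nucleoplasm (12.3%), with a median log2 ratio of 0.46. From 500 nt to 5 kb, 19 of 102 were higher in chromatin (18.6%) and 14 higher in nucleoplasm (13.7%), although the median was -0.69. From 5 kb to 50 kb, 45 of 441 were higher in chromatin (10.2%) and 126 higher in nucleoplasm (28.6%), with a median of -0.94. At 50 kb and over, 12 of 217 were higher in chromatin (5.53%) and 38 higher in nucleoplasm (17.5%), with a median of -0.77. Spans come from positions of all 6 lists, among which SRSF3 chromatin is the longest. With spans taken between the outermost positions of the SRSF7 pair of lists, the median span of the loci higher in chromatin was 0.058 of that of the loci higher in nucleoplasm, against 0.095 as first measured.

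**Figure D2:**
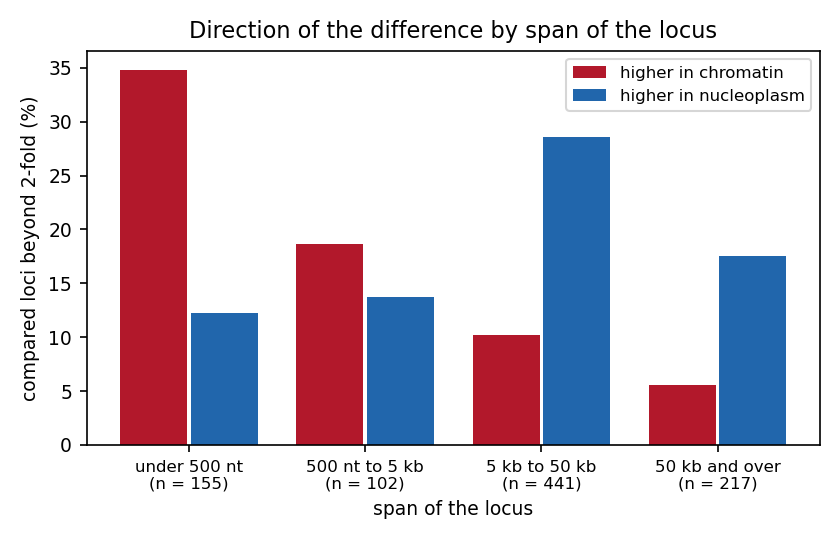
Bars give the percentage of compared loci of each span class called higher in chromatin (left bar) or higher in nucleoplasm (right bar); n is the number of compared loci. Under 500 nt the chromatin bar is the taller, at 34.8% against 12.3%, and from 5 kb to 50 kb the nucleoplasm bar is, at 28.6% against 10.2%.

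One locus led both lists. It spans 5110 nt, chr17:39979938-39985047 (plus strand), and held 48971 cDNAs or 19.7% of chromatin (19.6 to 19.9) and 16803 cDNAs or 6.11% of nucleoplasm (6.02 to 6.20). The share in chromatin was 3.23-fold that in nucleoplasm (3.17 to 3.28). Its cDNAs lay in different places in the fractions. Along 10 equal bins from the 5′ end, bin 1 held 16.5% of its chromatin cDNAs and 11.2% of its nucleoplasm cDNAs. Bin 9 held 5.38% of its chromatin cDNAs and 36.7% of its nucleoplasm cDNAs.

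The 5′ part of that locus held more of chromatin, and its last bins went opposite ways. Bins 1 to 8, which span 4088 nt, held 15.3% of all chromatin cDNAs (15.2 to 15.4) and 2.15% of all nucleoplasm cDNAs (2.09 to 2.20), a ratio of 7.12 (6.93 to 7.32). Bins 9 and 10, which span 1022 nt, held 4.41% of chromatin (4.33 to 4.50) and 3.96% of nucleoplasm (3.89 to 4.04), a ratio of 1.11 (1.08 to 1.14) that pools unlike bins. Bin 9 held 1.06% of chromatin and 2.24% of nucleoplasm, and bin 10 held 3.35% of chromatin and 1.72% of nucleoplasm. This division was chosen after the profile was seen. As shares of the locus, bins 1 to 8 held 77.6% in SRSF7 chromatin, 35.1% in SRSF7 nucleoplasm and 36.7% in SRSF7 cytoplasm. In the SRSF3 lists the same part held 77.2% of the locus in chromatin, 34.4% in nucleoplasm and 32.4% in cytoplasm. Both proteins thus showed the larger 5′ share in chromatin, although the share of the whole locus ran the other way in SRSF3, at 9.38% of chromatin and 16.7% of nucleoplasm.

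Single clusters within that locus were listed in 1 fraction only. Clusters joined positions of the SRSF7 pair of lists at gaps of up to 30 nt. The 48 nt at 39982961 to 39983008 had 403 chromatin cDNAs and no entry in nucleoplasm. The 41 nt at 39983573 to 39983613 were not listed in chromatin and had 442 cDNAs in nucleoplasm. The 43 nt at 39983659 to 39983701, also not listed in chromatin, had 122 cDNAs in nucleoplasm.

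**Figure D3:**
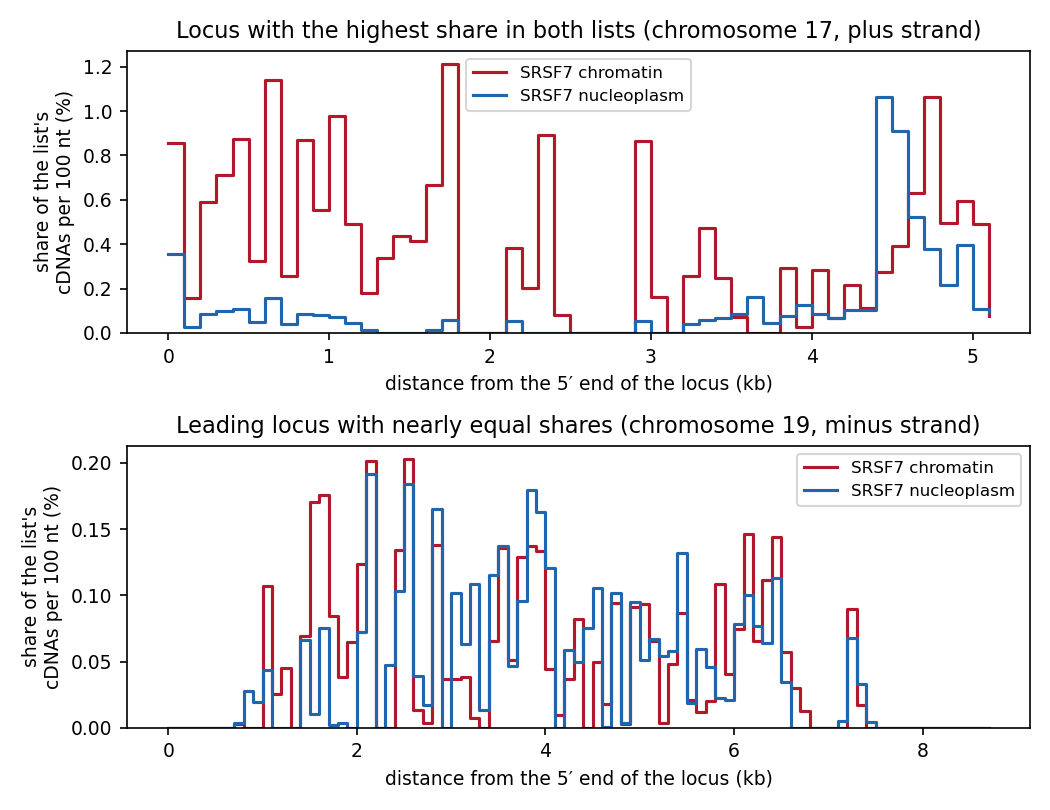
Share of each list's SRSF7 cDNAs per 100 nt (%), from the 5′ end of the locus, at the locus with the highest share (top) and at a leading locus with nearly equal shares (bottom), with chromatin and nucleoplasm as separate lines. In the top panel chromatin lies above nucleoplasm along most of bins 1 to 8, which hold 15.3% of chromatin and 2.15% of nucleoplasm cDNAs, and in the bottom panel the lines cross repeatedly.

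At some other loci with large shares in chromatin, nearly all cDNAs lay in a single short cluster. Locus chr11:68884516-68887316 (plus strand) held 4971 cDNAs or 2.0004% of chromatin (1.95 to 2.06) and 930 cDNAs or 0.338% of nucleoplasm (0.317 to 0.361), a log2 ratio of 2.56 (2.46 to 2.67). All of these cDNAs lay in 112 nt, at 68886925 to 68887036, in both fractions. Locus chr10:39978271-39978463 (plus strand) held 1.05% of chromatin and 0.248% of nucleoplasm, a log2 ratio of 2.09 (1.97 to 2.21). A cluster of 71 nt took 97.7% of that locus in chromatin and 98.7% in nucleoplasm. Of 10 equal bins of the locus, bin 8 held 46.6% in chromatin and 21.4% in nucleoplasm, while bin 9 held 7.992% in chromatin and 43.6% in nucleoplasm. The fractions thus shared the bound cluster and differed in where its cDNAs peaked.

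Chromatin also exceeded nucleoplasm at 2 longer loci with several clusters each. Locus chr9:40609392-40615329 (plus strand) held 1.05% of chromatin and 0.243% of nucleoplasm, a log2 ratio of 2.11 (1.98 to 2.23), in 6 clusters. Locus chr4:131881529-131913912 (minus strand) held 0.767% of chromatin and 0.0931% of nucleoplasm, a log2 ratio of 3.04 (2.85 to 3.24), in 13 clusters. Its highest cluster, 84 nt wide, took 36.7% of the locus in chromatin and 55.1% in nucleoplasm.

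The loci with the largest gains in chromatin, apart from the leading locus, fell apart by their share of SRSF7 cytoplasm. The leading locus held 17.3% of cytoplasm, between its shares of chromatin (19.7%) and nucleoplasm (6.11%). The 4 loci just described on chromosomes 11 (plus strand), 10, 9 and 4 held between 0.0512% and 0.0994% of cytoplasm cDNAs, below their shares of both nuclear fractions. By contrast, 3 loci under 500 nt held more of cytoplasm than of chromatin or nucleoplasm. Locus chr11:108872978-108873431 (minus strand) held 1.64% of chromatin, 0.661% of nucleoplasm and 2.63% of cytoplasm. Locus chr5:147072566-147072924 (plus strand) held 1.02% of chromatin, 0.295% of nucleoplasm and 1.53% of cytoplasm. Locus chr3:5860367-5860808 (plus strand) held 0.764% of chromatin, 0.226% of nucleoplasm and 1.20% of cytoplasm.

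Of the 8 loci with the highest shares of nucleoplasm, those other than the leading locus and the mitochondrial plus strand had log2 ratios from -1.26 to 0.086. Locus chr17:80586414-80606648 (minus strand) held 7222 cDNAs or 2.91% of chromatin and 14384 cDNAs or 5.23% of nucleoplasm, a log2 ratio of -0.85 (-0.89 to -0.81), not called. Its profile was nearly the same in both fractions, with 75.9% of its chromatin cDNAs and 74.2% of its nucleoplasm cDNAs in bin 2 of 10 from the 5′ end. Locus chr7:67105899-67150421 (minus strand) held 0.902% of chromatin and 2.16% of nucleoplasm, a log2 ratio of -1.26 (-1.33 to -1.19). With shares taken without the leading locus it was not called, at -1.04 (-1.11 to -0.97). Bin 7 of 10 held 42.6% of the locus in chromatin and 41.4% in nucleoplasm. Locus chr1:162965305-162970711 (plus strand) held 0.741% of chromatin and 1.5006% of nucleoplasm, and the 126 nt of chr9:78023133-78023258 (minus strand) held 0.742% of chromatin and 1.498% of nucleoplasm. Neither was called, at log2 ratios of -1.02 and -1.01 with intervals that reach inside 2-fold. Locus chr19:8790307-8801161 (plus strand) held 0.971% of chromatin and 1.43% of nucleoplasm.

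Losses in chromatin were also called at 6 loci of smaller nucleoplasm share, and at 4 of them 1 cluster took at least 86.0% of the cDNAs of either fraction. Locus chr10:80639388-80654614 (plus strand) held 0.167% of chromatin and 0.685% of nucleoplasm, a log2 ratio of -2.04 (-2.19 to -1.88), with 86.0% of its chromatin cDNAs and 93.9% of its nucleoplasm cDNAs in 56 nt. Locus chr6:124689882-124696339 (minus strand) held 0.209% of chromatin and 0.606% of nucleoplasm, with 99.2% of its chromatin cDNAs and 99.6% of its nucleoplasm cDNAs in 42 nt. Locus chr6:128749481-128753129 (minus strand) held 0.153% of chromatin and 0.505% of nucleoplasm, with 98.2% of its chromatin cDNAs and 99.4% of its nucleoplasm cDNAs in 68 nt. Locus chr9:123438482-123438626 (minus strand) held 75 cDNAs or 0.0302% of chromatin and 1160 cDNAs or 0.422% of nucleoplasm, a log2 ratio of -3.80 (-4.16 to -3.47). Locus chr13:22107670-22114334 (minus strand) held 0.0278% of chromatin and 0.280% of nucleoplasm, at -3.33 (-3.71 to -2.98). Locus chr2:166888719-166892672 (plus strand) lay just past the threshold at -1.12 (-1.22 to -1.02), with 0.464% of chromatin and 1.01% of nucleoplasm, and was not called with shares taken without the leading locus, at -0.90 (-0.995 to -0.80). None of the 6 loci just described was called higher in nucleoplasm with positions counted in place of cDNAs, as at chr9:123438482 (-0.29, -0.96 to 0.35) and chr13:22107670 (-0.16, -0.78 to 0.43).

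The highest ratios belonged to loci with few cDNAs in nucleoplasm. Locus chr8:126123848-126123879 (minus strand), 32 nt, held 311 cDNAs in chromatin and 11 in nucleoplasm, a log2 ratio of 4.97 (4.11 to 5.98). Locus chrX:5684006-5684106 (plus strand) held 341 cDNAs in chromatin and 14 in nucleoplasm, at 4.75 (3.99 to 5.64). In SRSF3 the locus on chromosome 8 had 250 cDNAs in chromatin and 1 in nucleoplasm, a log2 ratio of 5.48 (2.99 to 10.8), and the locus on chromosome X had 242 in chromatin and 2 in nucleoplasm, at 4.43 (2.56 to 7.49). Both fall under the minimum for comparison in SRSF3. Locus chr16:91534829-91534928 (plus strand) held 887 cDNAs in chromatin and 64 in nucleoplasm, at 3.94 (3.57 to 4.33), with 0.31 in SRSF3. In 2 of the loci with the highest ratios, the cluster that held most of the chromatin cDNAs was not listed in nucleoplasm. It was 80 nt with 436 chromatin cDNAs at chr2:32818801-32818880 (plus strand), and 51 nt with 178 cDNAs in chromatin at chr12:112779193-112779243 (plus strand). The other 5 of the 10 highest ratios lay between 3.52 and 4.07.

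Several of the lowest ratios were found at long loci with many low positions in nucleoplasm. Locus chr1:135496376-135557939 (minus strand) had 16 chromatin cDNAs at 12 positions and 369 nucleoplasm cDNAs at 281 positions, a log2 ratio of -4.38 (-5.20 to -3.66). Locus chr7:6656667-6683095 (minus strand) had 19 chromatin cDNAs at 17 positions and 359 nucleoplasm cDNAs at 289, at -4.09 (-4.84 to -3.43). Locus chr10:55439847-55523754 (plus strand) had 26 chromatin cDNAs at 24 positions and 397 nucleoplasm cDNAs at 353, at -3.79 (-4.42 to -3.21). This last locus held 0.00517% of cytoplasm, against 0.518% for chr19:44368569-44383355 (plus strand), which had a like ratio of -3.79 (-4.43 to -3.20). At each locus named in this paragraph the tallest chromatin position held 2 cDNAs. A minimum of 3 cDNAs per position therefore left these loci without a chromatin count and without a ratio. The 10 lowest ratios ran from -4.38 to -3.43. Of the 10 loci, 3 spanned under 500 nt, with means of 3.61 to 17.8 cDNAs per nucleoplasm position.

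Loci with at least 50 cDNAs in 1 list and none in the other numbered 9 in chromatin and 17 in nucleoplasm. Those only in chromatin had a median span of 275 nt, and those only in nucleoplasm 17085 nt. The one with the most cDNAs in chromatin spanned 28 nt at chr16:11144187-11144214 (plus strand), with 166 cDNAs in chromatin. The one with the most in nucleoplasm spanned 69075 nt at chr1:71630653-71699727 (minus strand), with 158 cDNAs over 132 positions in nucleoplasm. A locus that is not listed is not shown to be unbound, since listing needed a false discovery rate below 0.05.

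Mitochondrial RNA, which is made outside the nucleus and marks cytoplasmic material in a fraction, held a smaller share of chromatin. It had 799 cDNAs or 0.322% of chromatin (0.300 to 0.345) and 3964 cDNAs or 1.44% of nucleoplasm (1.40 to 1.49). The chromatin share was 0.223 of the nucleoplasm share (0.206 to 0.241), and the cytoplasm list held 8.89%. Listed mitochondrial positions numbered 271 in chromatin and 439 in nucleoplasm. As shares of all listed positions, they gave a log2 ratio of 0.083 with an interval that spans 0 (-0.14 to 0.30), beside -2.16 for cDNAs. A mitochondrial position held 2.95 cDNAs on average in chromatin and 9.03 in nucleoplasm. On the plus strand, the window from 2001 to 3000 held 286 cDNAs in chromatin and 1939 in nucleoplasm. The part of cytoplasmic material in the differences at other loci was not tested.

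Individual positions were shared between the fractions more often where they were tall. Of chromatin positions, 42.0% (41.7 to 42.4) had a nucleoplasm position within 5 nt on the same strand, and of nucleoplasm positions 26.7% (26.4 to 26.9) had a chromatin position that near. Among positions with 1 cDNA the shares were 33.6% for chromatin and 19.4% for nucleoplasm. Among those with 20 to 99 cDNAs they were 83.4% (81.7 to 85.0) for chromatin and 95.02% (93.7 to 96.1) for nucleoplasm. Of positions with 100 or more, 91 of 117 were shared in chromatin (77.8%) and 73 of 76 in nucleoplasm (96.1%). The tall positions without a partner were thus 26 in chromatin and 3 in nucleoplasm, although the nucleoplasm list is the longer. Neighbouring positions can belong to 1 site, and how many of the 26 lie in the leading locus was not counted.

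**Figure D4:**
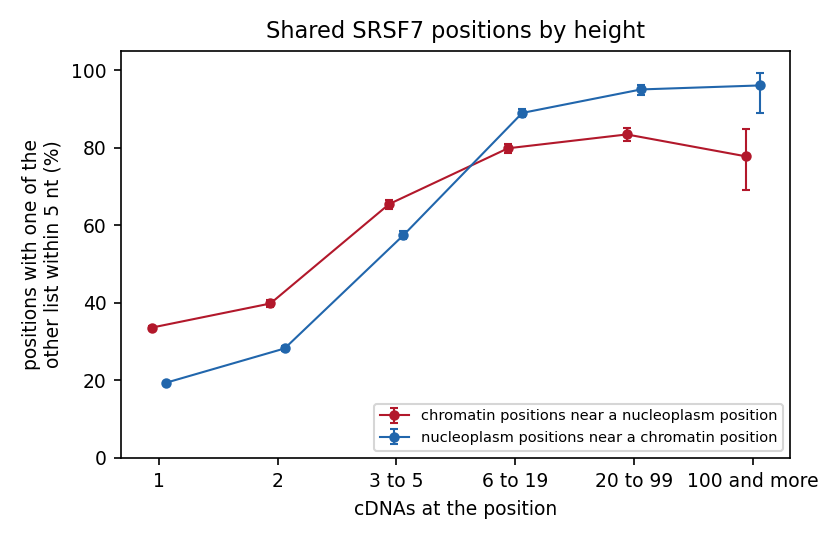
Percentage of listed SRSF7 positions with a position of the other list within 5 nt on the same strand (vertical), by cDNAs at the position (horizontal); bars are exact 95% intervals for counting error. Both lines climb up to 20 to 99 cDNAs, from 33.6% to 83.4% for chromatin positions of 1 and of 20 to 99 cDNAs, and from 19.4% to 95.02% for nucleoplasm positions.

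Clusters held in common carried most cDNAs of both fractions. Of 46277 clusters, 5499 were listed in both lists, which is 28.7% of the chromatin clusters and 16.8% of the nucleoplasm clusters. They held 78.5% of the chromatin cDNAs and 62.7% of the nucleoplasm cDNAs. The clusters listed in 1 fraction were small, with a median of 3 cDNAs for either fraction, against 12 for those in both. Most clusters with at least 20 cDNAs were listed in both fractions, 1747 in number. Those listed in 1 fraction were 146 of 1893 in chromatin and 143 of 1890 in nucleoplasm.

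Within loci, a minority of clusters differed between the fractions. In compared loci, 1479 clusters with at least 20 cDNAs were set against the total of their own locus, so that the level of the locus drops out, and 136 clusters that were a whole locus were left out. An unlisted cluster was counted as 0. Of the 1479, 127 took a larger share of their locus in chromatin (8.59%) and 106 in nucleoplasm (7.17%). Of these 233 clusters, 55 were not listed in nucleoplasm and 61 not listed in chromatin. Clusters of both directions occurred together in 31 loci. Over the 487 loci with a compared cluster, the one with the most called clusters was at chr19:5794731-5803434 (minus strand), where the level hardly differed, with 4.05% of chromatin (3.97 to 4.13) and 3.82% of nucleoplasm (3.74 to 3.89). Of its 40 compared clusters, 9 took a larger share in chromatin and 10 in nucleoplasm. The 47 nt at 5802198 to 5802244 had 140 chromatin cDNAs and no entry in nucleoplasm, and the 25 nt at 5801056 to 5801080 were not listed in chromatin and had 131 cDNAs in nucleoplasm. Bin 2 of 10 along the locus held 16.1% of its cDNAs in chromatin and 5.63% in nucleoplasm, and bin 4 held 8.28% in chromatin and 16.3% in nucleoplasm.

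The median shift along the loci between the fractions was small. Over 658 compared loci of at least 5000 nt, the cDNA-weighted centre was placed between 0 at the 5′ end and 1 at the 3′ end of the locus. The median of chromatin minus nucleoplasm was -0.0079, with an SD of 0.149 between loci. That SD describes single loci and does not measure how certain the median is. The centre in chromatin lay more than 0.1 nearer to the 5′ end at 142 loci and more than 0.1 nearer to the 3′ end at 93.

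The same fractions of SRSF3-GFP, another SR protein of the same family, gave a partly different division. Over 710 loci compared in both proteins, the log2 ratios had a Spearman correlation of 0.17 and a Pearson correlation of 0.18. This describes loci, which are not independent replicates and share the cells' RNA and the joining of the lists. In SRSF3, 17.2% of 1778 loci were called higher in chromatin and 31.6% higher in nucleoplasm. Of the 710 loci, 172 were higher in chromatin in SRSF3 (24.2%) and 208 higher in nucleoplasm (29.3%). Higher in chromatin in both proteins were 21 loci, which is 19.1% of the 110 such SRSF7 loci, below the 24.2% over all 710, and 12.2% of the 172 such SRSF3 loci. Another 60 were higher in nucleoplasm in both, which is 37.7% of 159 in SRSF7, above the 29.3% over all, and 28.8% of 208 in SRSF3. In opposite directions, 7 of the 110 SRSF7 loci higher in chromatin were higher in nucleoplasm in SRSF3, below the 29.3% over all 710. The reverse held at 28 of the 159 SRSF7 loci higher in nucleoplasm, below the 24.2% over all. At the SRSF7 loci higher in chromatin the median SRSF3 log2 ratio was 0.05, and at those higher in nucleoplasm it was -0.37, beside -0.05 over all 710.

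**Figure D5:**
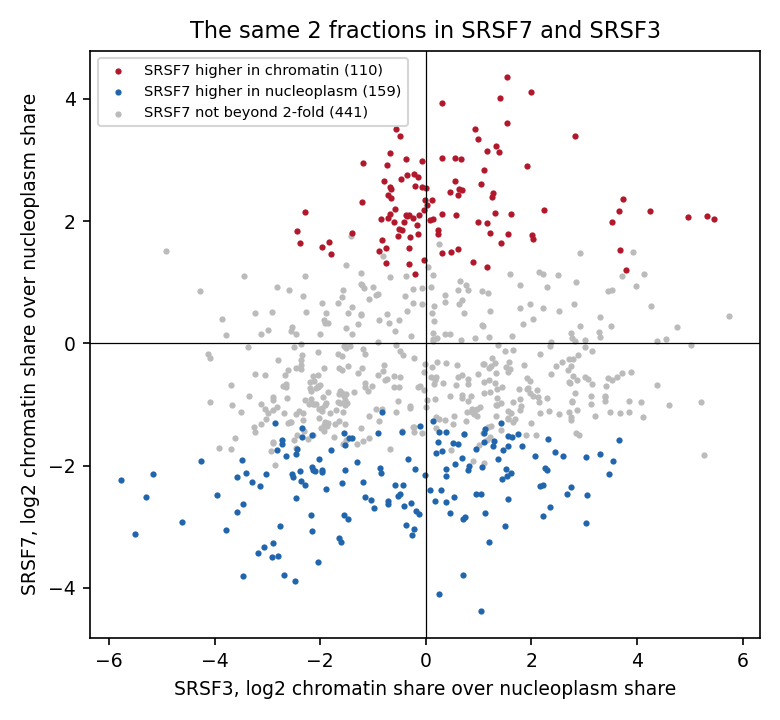
Log2 ratio of the chromatin share to the nucleoplasm share in SRSF7 (vertical) against the same ratio in SRSF3 (horizontal) for 710 loci compared in both proteins, coloured by the SRSF7 call. The points scatter widely, with a Spearman correlation of 0.17, and loci higher in SRSF7 chromatin lie on both sides of 0 in SRSF3.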

How the data were processed

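Fractionation iCLIP positions of SRSF7-GFP in chromatin and nucleoplasm were used as deposited. The authors pooled 3 replicates per list, per the labels, and each deposited value is a signed score, a whole number whose size was read as the cDNA count and whose sign was read as the strand. Positions passed a false discovery rate below 0.05 with 100 permutations and a 15 nt neighbourhood, per the file headers, in build mm9, per the submitters' processing notes. The SRSF7 track names say that regions were taken as one, while their descriptions say separately. The aligner is not given in the sources used here, nor is the removal of duplicates.

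Shares, intervals, loci and clusters were computed with Python 3.11.15, numpy 2.4.6, pandas 2.3.3 and scipy 1.17.1. On simulated counts drawn with counting error only, 98.0% of 200 loci changed 4-fold were recovered among 1065 compared, with 0 calls among unchanged loci. That simulation had no spread between replicates and no listing threshold, so it does not measure how reliable the calls are. Loci were taken for description by a rule: the 8 of highest share per list, the 8 largest gains and 8 largest losses, the 10 highest and 10 lowest ratios among called loci, the 5 largest listed in 1 fraction only, and the 5 clusters at each end of the within-locus ratio. Clusters not listed in 1 fraction tie there and were ordered by the bound nearest equality. The loci, rule and lists were chosen with earlier results of these data known. Planned lists of named genes were not run, because no annotation or genome of mm9 was used and coordinates were not converted between builds. No sequence is printed for the same reason.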

Additional observations from a re-analysis of the deposited data

Results flagged for a closer look

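At 11 of the 36 loci of the naming rule compared in both proteins, the chromatin share over the nucleoplasm share ran in opposite directions in SRSF7 and SRSF3, with both counting intervals on one side of equality. Each protein has 1 pooled value per fraction, so the difference was not tested. The 36 loci were picked for extreme shares or ratios, and this count was not made over all 710. Beyond 2-fold in both proteins, 7 and 28 of the 710 ran in opposite directions, beside 21 higher in chromatin and 60 higher in nucleoplasm in both. As shares of the SRSF7 calls, both opposite counts lay below the SRSF3 shares over all 710. Directions were not recomputed with shares taken without the leading locus. It held 9.38% of SRSF3 chromatin and 16.7% of SRSF3 nucleoplasm, so leaving it out lowers every other SRSF3 log2 ratio. The opposite directions may therefore not hold at the loci below on chromosomes 7 and 19, whose SRSF3 ratios were only slightly positive. Log2 ratios follow, SRSF7 before SRSF3, with loci given by chromosome, strand and start. Higher in chromatin in SRSF7 were chromosome 17 plus strand 39979938 (1.69 against -0.83) and chromosome 11 plus strand 68884516 (2.56 against -0.67). The same direction was seen at chromosome 11 minus strand 108872978 (1.31 against -0.75) and chromosome 10 plus strand 39978271 (2.09 against -0.36). It was also seen at chromosome 5 plus strand 147072566 (1.79 against -0.15) and chromosome 3 plus strand 5860367 (1.76 against -0.53). Lower in chromatin in SRSF7 were chromosome 17 minus strand 80586414 (-0.85 against 0.69) and chromosome 7 minus strand 67105899 (-1.26 against 0.14, 0.088 to 0.19). The same held at chromosome 19 plus strand 8790307, where the SRSF3 interval nearly reached 0 (-0.56 against 0.097, 0.0097 to 0.18). It also held at chromosome 1 minus strand 135496376 (-4.38 against 1.04). The last was chromosome 10 plus strand 55439847 (-3.79 against 0.71).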

How the results depend on the processing

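No paired analysis was possible because the replicates were pooled before deposit, and for the same reason no replicate could be left out. Where a value moved, the cause was not tested. Loci higher in chromatin and in nucleoplasm, 130 and 197, numbered 69 and 97 under a minimum of 3 cDNAs per position (65 and 42 of them among the 130 and 197), 56 and 40 with positions counted in place of cDNAs, 75 and 85 with at least 200 cDNAs per locus, and 42 and 46 beyond 4-fold (chosen after seeing the data). With positions counted, 40 of the 56 and 40 of the 40 were among those first called. Leaving out mitochondria and the 10 highest loci gave 140 and 142. Other settings kept both counts within 1.5 times. The mitochondrial log2 ratio turned to 0.083 with positions counted. The ratio of median spans, 0.095, was 0.054 under that minimum, 0.034 with loci joined over the SRSF7 pair of lists and 0.058 with their outermost positions. The SRSF3 rank correlation was 0.32 under the minimum of 3 cDNAs and 0.27 under the 1000 nt gap for loci. Shared positions of chromatin and of nucleoplasm came to 23.6% and 13.8% at 0 nt, 49.7% and 33.6% at 20 nt, 63.8% and 56.5% with at least 3 cDNAs, and 41.5% and 27.2% after thinning. Under the minimum of 3 cDNAs, clusters in both lists numbered 1277, and clusters with a larger share of their locus 84 in chromatin and 59 in nucleoplasm. The described locus on chromosome 19, minus strand, turned to -0.43 in that setting. Chromosome 11 minus strand 108872978 was no longer called there (0.88). Of 40 loci of the naming rule listed in both fractions, 8 had no value in that setting. With positions counted, the log2 ratio turned at chromosome 17 minus strand 80586414 (0.44), chromosome 1 plus strand 162965305 (0.054), chromosome 9 minus strand 78023133 (0.93), chromosome 19 plus strand 8790307 (0.48) and the mitochondrial plus strand (0.13). Another 11 of the 40 loci of the naming rule with a value kept their sign there and were no longer called. Among these were chromosome 9 minus strand 123438482 (-0.29) and chromosome 13 minus strand 22107670 (-0.16). They also included chromosome 11 minus strand 108872978 (1.15) and chromosome 10 plus strand 39978271 (0.97). So did chromosome 9 plus strand 40609392 (1.36) and chromosome 5 plus strand 147072566 (1.22) lose their calls. Without the leading locus, chromosome 7 minus strand 67105899 (-1.04) and chromosome 2 plus strand 166888719 (-0.90) were no longer called. With positions counted, the sign also turned at chromosome 2 plus strand 166888719 (0.42), chromosome 10 plus strand 80639388 (0.11), and chromosome 6 minus strand 124689882 (0.61) and 128749481 (0.58). Lists of positions that passed a threshold, with no sample lacking the tagged protein, leave background cDNAs and weakly bound positions unmeasured, and joined loci can merge or split genes.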
